A study of Mus musculus with 8 samples.

Results

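The transcripts described here encode 9 proteins that load glutamate into synaptic vesicles, clear it from the extracellular space and turn it over to glutamine. They are the vesicular transporters Slc17a7 and Slc17a6, the plasma membrane transporters Slc1a1, Slc1a2 and Slc1a3, the enzymes Glul and Glud1, and the glutamine transporters Slc38a1 and Slc38a3. The genes were taken by symbol from a table of 15035 genes, and all 9 were found. RNA was sequenced from auditory nerves that were microdissected out of mouse cochleas at postnatal day 21. Wild-type mice gave 4 libraries (1 to 4), and mice whose label says heterozygous for the transcription factor gene Mef2c gave the other 4 (5 to 8). Each library pooled the 2 cochleas of 1 mouse. The labels do not describe the Mef2c allele, the strain, the sex or the litter, and name no treatment. The design asks which transcripts differ between these genotypes.

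Values were judged from their spacing to be normalized counts, that is, read counts per gene after division by each library's size factor. The depth estimated from that spacing, which 88.5% to 91.7% of low values followed, was 13363354 to 21507209 reads per library. Mef2c itself was higher in the libraries labelled heterozygote (583.3 to 735.1 normalized counts) than in wild type (402.2 to 508.7). Because the allele is not described, these counts neither bear out nor refute the label. Every direction below is between libraries as labelled. Libraries 1 and 5 stood apart in Xist, the transcript of the inactive X chromosome, with 12 and 7.6 normalized counts against 5175 to 8615 in the others. Results that rest on either library are given with and without it. The nerve label was checked against a list of 12 neuronal genes and a list of 7 genes of myelinating Schwann cells, the glia of the peripheral nerve. The summed level of the neuronal list was 179531 to 246672 normalized counts and that of the Schwann cell list 99822 to 140421, and no gene of either list was at 0 in any library. The listed genes of cochlear epithelium and lateral wall, hair cells and endothelium that were in the table were above 0 in all 8 libraries as well. The summed endothelial level was 6777.6 to 8438 normalized counts in wild type and 5926.6 to 6604 in libraries 5 to 8, with no overlap. Of its 6 genes, 3 had a log2 fold change below 0 and 3 above, with a median of -0.04. Cldn5 (-0.43) and Emcn (-0.71), 2 of the 6, were lower at an unadjusted limma-trend p under 0.05. Such a p in that direction was found for 7.34% of all genes tested. Of the 6 genes, 0 passed the adjusted p. The genotypes overlapped in each of the 6, while they did not overlap in 7.26% of all genes tested. The other lists are given beside Slc1a3 and Slc17a8. In such bulk samples, fewer cells of a type and less RNA per cell cannot be told apart.

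Glutamate is the transmitter of the hair cell synapse onto spiral ganglion neurons and of the terminals of these neurons in the cochlear nucleus. Vesicular glutamate transporters fill the vesicles before release, and transporters of the Slc1 family carry released glutamate into glia and neurons with the sodium gradient. In glia, glutamine synthetase converts glutamate to glutamine, which is exported, taken up by neurons and turned back into glutamate.

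Levels of different genes were compared as normalized counts per kilobase of the longest annotated transcript. Glul, which encodes glutamine synthetase, stood highest at 9402 normalized counts per kilobase over the 8 libraries, place 56 among 14668 genes with a length. Slc17a7 was next at 3170.5 per kilobase, place 219. Glud1, for mitochondrial glutamate dehydrogenase, had 1325.5 per kilobase, place 735. The 8 libraries of each of these 3 genes did not overlap with those of the gene next in order. Below them came Slc38a1 at 733 per kilobase, Slc1a3 at 579.8 and Slc17a6 at 506. Libraries of these neighbours overlapped, so their order is within the spread between libraries. Slc38a3 followed at 267 per kilobase and did not overlap with either neighbour. The lowest were Slc1a2 at 128 per kilobase, place 7596, and Slc1a1 at 58.2, place 10572, and their libraries overlapped. The longest transcript of Slc1a2 has 11595 bases, and which of its transcripts the nerve held was not tested. Before division by length, its mean normalized counts (1699 in wild type, 1277 in libraries 5 to 8) were above those of Slc38a3 (886 and 795). The nerve therefore held more transcript per length of the glutamine-making enzyme and of the vesicular transporter Slc17a7 than of any of the 3 uptake transporters.

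**Figure D1:**
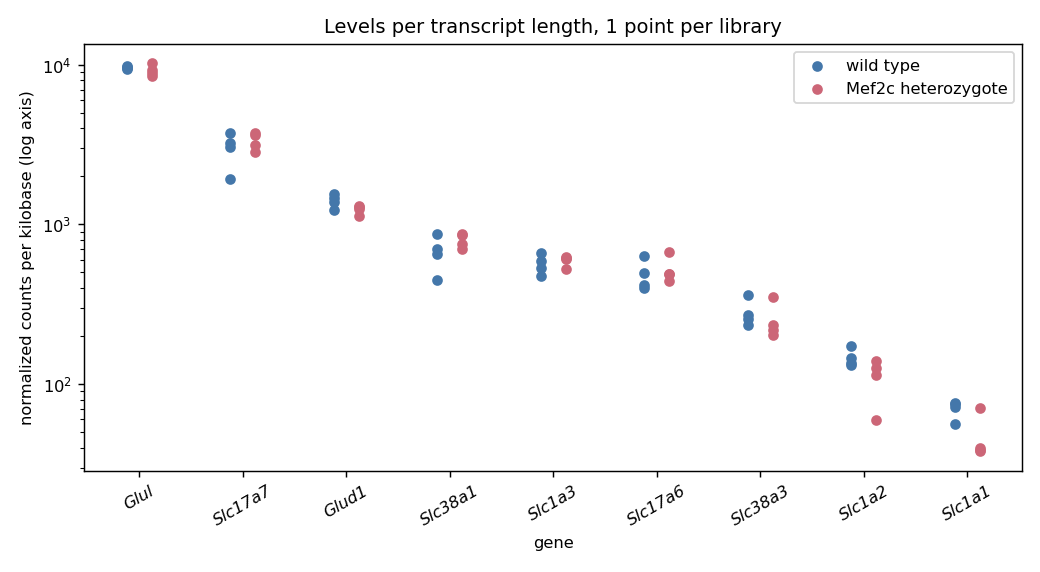
Normalized counts per kilobase of the longest transcript (log axis) for each gene, with 1 point per library, wild type in blue and libraries labelled Mef2c heterozygote in red. Glul, Slc17a7 and Glud1 are separated from the genes below them in all 8 libraries, whereas Slc38a1, Slc1a3 and Slc17a6 overlap.

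Between genotypes, 0 of the 9 genes passed a limma-trend adjusted p of 0.05, against 0.0807% of all 14870 genes tested. At an unadjusted p under 0.05 there was 1 of the 9, Slc1a1, against 14.1% of all genes tested in either direction and 7.34% in its direction. That count was 0 without library 8 and without libraries 1 and 5, and 2 without library 1, 3, 4 or 6, with upper-quartile scaling or with low Xist as a covariate. After the correction for transcript length it was 3, with Slc1a2 and Glud1 added. Without library 7 it was 1, with Slc1a2 in place of Slc1a1. The genotypes overlapped in each of the 9, while they did not overlap in 7.26% of all genes. The log2 fold change was below 0 in 5 of the 9 and in 47.7% of all genes, and its median was -0.07 against 0.02. Counts this close to the background are not a result about these genes. In the authors' deposited table the FDR of the 9 ran from 0.210 for Slc1a1 to 0.825 for Slc1a3, and 1.61% of genes there had an FDR under 0.05. Each of the 9 was tested in 18 alternative analyses, and 0 passed an adjusted p of 0.05 in any of them.

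**Figure D2:**
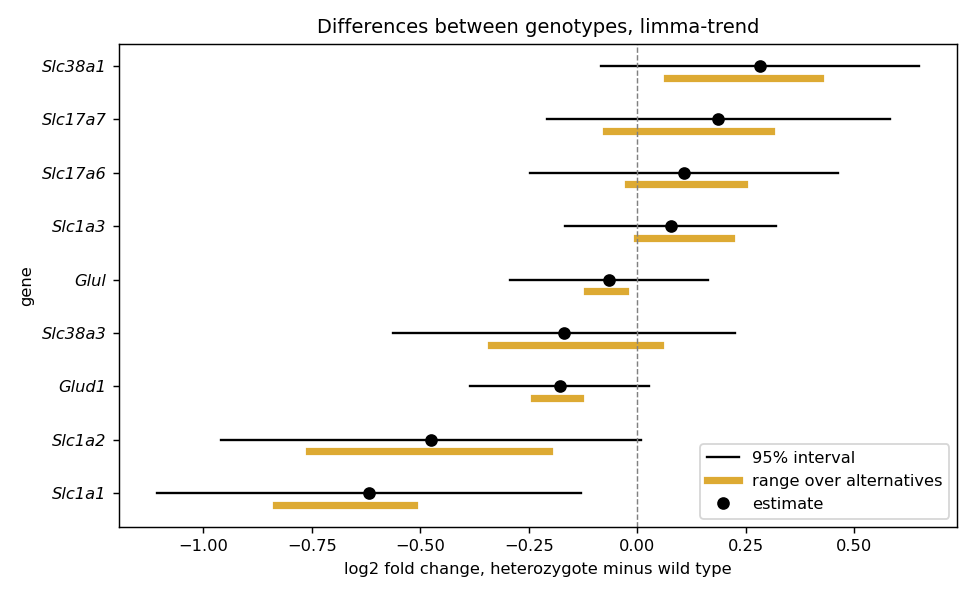
Log2 fold change of each gene, libraries labelled heterozygote minus wild type, from limma-trend (points) with its unadjusted 95% interval (black lines) and the range of the estimate over 18 alternative analyses (yellow bars). The interval of Slc1a1 (-1.11 to -0.13) is the only one of the 9 that leaves out 0.

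Slc17a7 and Slc17a6 encode the vesicular glutamate transporters of glutamatergic neurons, and spiral ganglion neurons express both. Slc17a7 (ENSMUSG00000070570.5, chromosome 7, 45163949 to 45176142, plus strand, mm10) had 5907, 10041.5, 11576 and 9468 normalized counts in wild-type libraries 1 to 4. Libraries 5 to 8, labelled heterozygote, had 11518, 8769.7, 9706.5 and 11133. Library 1 was the lowest of the 8, and the other 7 lay between 8769.7 and 11576 with the genotypes interleaved. The means were 9248 ± 2398 and 10282 ± 1274 (SD, n = 4 each). Its log2 fold change was 0.19 (standard error, SE, 0.18; limma-trend adjusted p = 0.641), and the 95% interval of the ratio was 0.866 to 1.497. Without library 1 the log2 fold change was -0.01, and without libraries 1 and 5 it was -0.07, so its direction rests on library 1.

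Slc17a6 (ENSMUSG00000030500.6, chromosome 7, 51622006 to 51671119, plus strand) had 2050.5, 1722, 2643 and 1659.6 normalized counts in wild type and 2032, 2791, 1823.5 and 2019.6 in libraries 5 to 8. The highest libraries were 3 and 6, 1 of each genotype. The log2 fold change was 0.11 (SE 0.16; limma-trend adjusted p = 0.776), with a 95% interval of the ratio from 0.843 to 1.38. It was -0.02 without library 6 and 0.25 without library 3. Per kilobase, Slc17a7 stood 6.08-fold above Slc17a6 in wild type and 6.42-fold in libraries 5 to 8, as geometric means.

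The neuronal marker list was examined beside these genes. Of its 12 members, 0 had an unadjusted limma-trend p under 0.05, against 14.1% of all genes tested. Its median log2 fold change was 0.02, as for all genes tested. Its summed level was 179531 to 246672 normalized counts in wild type and 198521 to 234136 in libraries 5 to 8. Library 1, lowest in Slc17a7, also had the lowest sum. In library 1 the neuronal genes deviated by a median of -0.13 on the log2 scale, each gene from its own mean over libraries. There Slc17a7 deviated by -0.70 and Slc38a1 by -0.68.

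**Figure D3:**
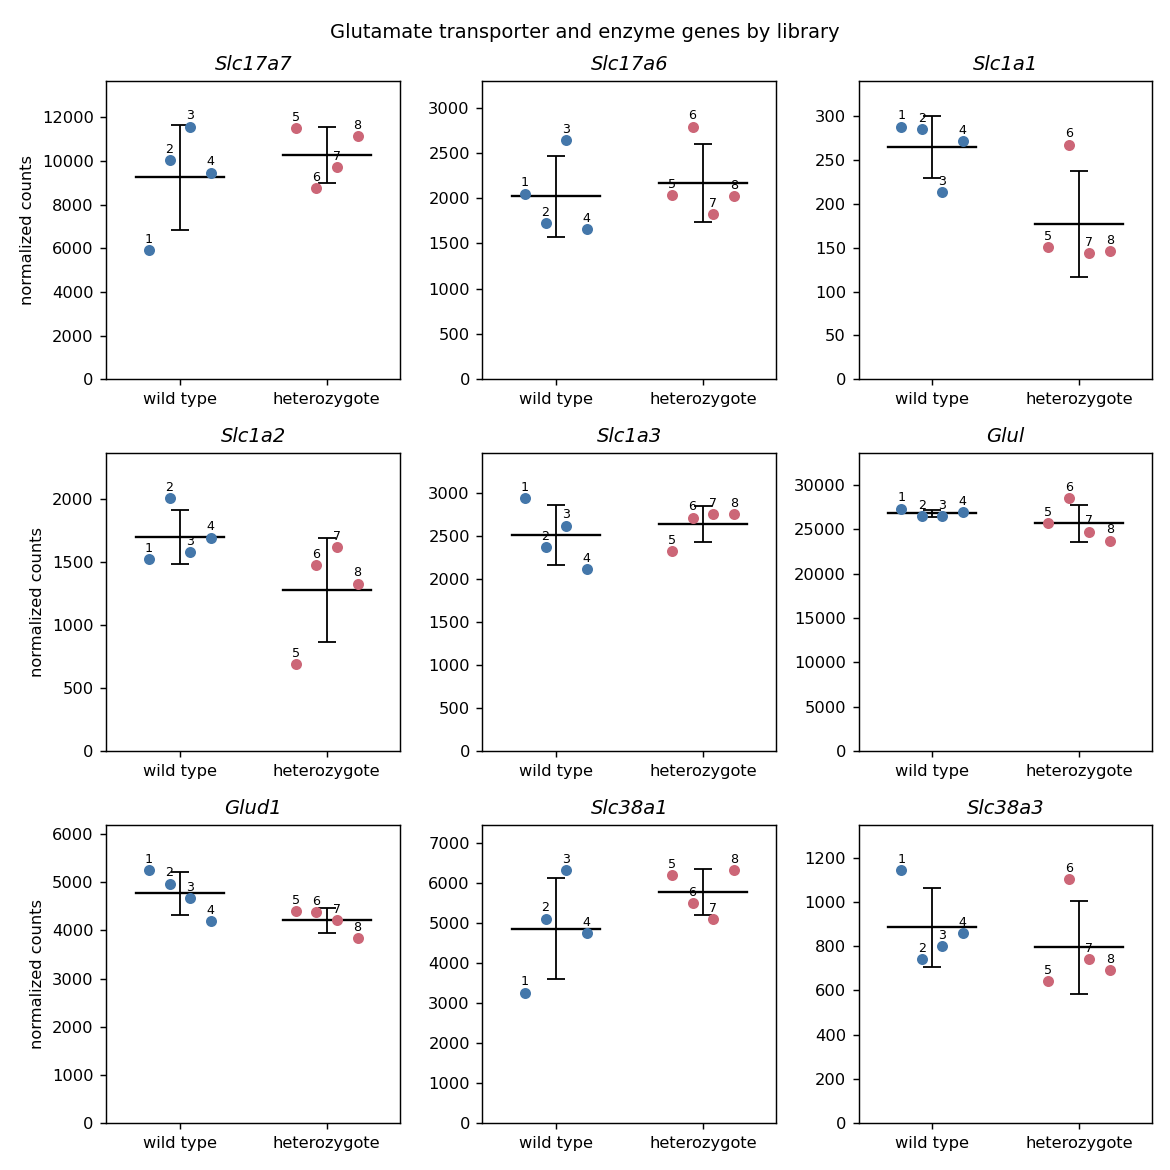
Normalized counts of the 9 genes in each library (points, numbered 1 to 4 for wild type in blue and 5 to 8 for libraries labelled heterozygote in red), with the mean and SD of each group (n = 4) in black and axes from 0. The genotypes overlap in every panel. Library 6 lies with the wild-type libraries in Slc1a1 and library 5 is low in Slc1a2.

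Slc1a1, Slc1a2 and Slc1a3 encode uptake transporters of the same family. Slc1a1 is the transporter known best from neurons, Slc1a2 is the main transporter of brain astrocytes, and Slc1a3 is known from glia, in the cochlea also from the cells around the hair cells and from satellite glia.

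Slc1a1 (ENSMUSG00000024935.11, chromosome 19, 28835049 to 28913960, plus strand) had 288, 285.5, 214 and 272 normalized counts in wild-type libraries 1 to 4. Libraries 5 to 8 had 151, 267.5, 144 and 146. Libraries 5, 7 and 8 lay below every wild-type library, and library 6 lay within the wild-type range. The means were 264.75 ± 34.8 and 177 ± 60.2 (SD, n = 4 each), and the log2 fold change was -0.62 (SE 0.22). The limma-trend unadjusted p was 0.0172 and the adjusted p 0.283, so the difference did not pass among all genes. The fitted ratio was 0.651, with a 95% interval of 0.465 to 0.913 that is not adjusted for the number of genes. Its estimate lay between -0.83 (without library 6) and -0.52 (without libraries 1 and 5) in the alternatives, and the limma-trend adjusted p ran from 0.113 to 0.618. The unadjusted limma-trend p was above 0.05 in 3 of them, at 0.0709 without libraries 1 and 5, 0.0513 without library 7 and 0.0508 without library 8. In the authors' deposited table the ratio was 0.671 with an unadjusted p of 0.0171. The antisense gene 4430402I18Rik overlaps Slc1a1 and had a mean of 43.75 normalized counts. Whether counting used the strand is not given in the sources used here, so reads of the overlap cannot be assigned.

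Windows of 300 bases at RefSeq transcript starts (250 before to 50 after, GRCm38.p6, the build called mm10) were searched for the MEF2 motif on both strands, because Mef2c is the labelled gene. The motif was in 0 of 8 windows of 7 of the 9 genes, and in 3.19% of all 32851 windows. Slc38a1 and Slc38a3 had no window. The absence says only that the letters are not in these windows. The windows of Slc1a1, which had the smallest p of the 9, and of its paralog Slc1a3, whose means differed by less than the spread between libraries, are printed 5′ to 3′ with CG dinucleotides in capitals to show how unlike they are. Slc1a1 (chr19:28834885-28835184, plus strand) has 32 CG dinucleotides and a GC content of 70.3%, and Slc1a3 (chr15:8710758-8711057, minus strand) has 3 and 45.3%. The median window has 7 CG dinucleotides and a GC content of 52.7%.
Slc1a1: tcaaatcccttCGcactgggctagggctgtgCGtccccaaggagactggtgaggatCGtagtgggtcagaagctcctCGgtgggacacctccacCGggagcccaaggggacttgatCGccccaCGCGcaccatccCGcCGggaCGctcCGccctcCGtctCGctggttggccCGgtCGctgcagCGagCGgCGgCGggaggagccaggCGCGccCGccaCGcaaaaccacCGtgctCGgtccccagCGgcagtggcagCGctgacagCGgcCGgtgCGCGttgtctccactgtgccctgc
Slc1a3: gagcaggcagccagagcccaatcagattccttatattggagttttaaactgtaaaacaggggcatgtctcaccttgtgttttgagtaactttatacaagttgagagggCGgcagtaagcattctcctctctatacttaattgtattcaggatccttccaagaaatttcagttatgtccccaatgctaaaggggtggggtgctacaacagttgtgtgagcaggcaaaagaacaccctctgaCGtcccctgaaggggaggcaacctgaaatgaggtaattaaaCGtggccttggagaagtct

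Slc1a2 (ENSMUSG00000005089.15, chromosome 2, 102658659 to 102790784, plus strand) had 1522, 2003, 1579 and 1692 normalized counts in wild-type libraries 1 to 4. Libraries 5 to 8 had 689.7, 1472.5, 1619 and 1328. Library 5 stood far below the other 7, and library 7 lay within the wild-type range. The means were 1699 ± 214 and 1277 ± 409 (SD, n = 4 each), with a log2 fold change of -0.47 (SE 0.22) and a limma-trend adjusted p of 0.36 (unadjusted p 0.054). The 95% interval of the ratio was 0.514 to 1.01. Without library 5 the log2 fold change was -0.20, and without libraries 1 and 5 it was -0.25, with limma-trend adjusted p of 0.488 and 0.383. The correction for transcript length gave -0.76 with a limma-trend adjusted p of 0.246. Low Xist as a covariate cannot move the estimate, because each group of 4 holds 1 such library. With it the SE was 0.16 (unadjusted limma-trend p 0.0112). The limma-trend adjusted p was then 0.19, the lowest of the 18 alternatives. Its longest transcript has 11595 bases.

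Markers of the glia of the central nervous system are given beside Slc1a2. The 9 astrocyte markers were Gfap, Aqp4, Aldoc, Slc6a11, Ntsr2, Acsbg1, Mlc1, Agt and Bcan. All 9 had an unadjusted limma-trend p under 0.05 with the lower mean in the heterozygote-labelled group. Of all genes tested, 7.34% had such a p in that direction. Of the 9 markers, 0 passed the adjusted p. The median log2 fold change over the astrocyte list was -0.81, against 0.02 for all genes tested. Its summed level was 21173.5 to 32154 normalized counts in wild type and 11122 to 18437 in libraries 5 to 8, with no overlap. Of 12 oligodendrocyte markers, 3 (Mog, Mobp and Klk6) fell past the adjusted p, against 0.0807% of all genes tested. These calls were lost without library 2, 4 or 8, where limma-trend called 0 of all genes tested and 1919, 1451 and 1180 genes had an unadjusted p under 0.05. Mobp was close to the threshold, with a limma-trend adjusted p of 0.0495. Whether the 3 markers kept their calls in the other alternatives is not given here. In all 8 libraries, 10 of the 12 had an unadjusted limma-trend p under 0.05, all lower, against 7.34% of all genes tested in that direction. The list's median log2 fold change was -1.29. The summed oligodendrocyte level was 23927 to 31336 in wild type and 9325 to 17708 in libraries 5 to 8. No gene of either list was at 0 in any library. Library 5, lowest in Slc1a2, was lowest in both sums. There Slc1a2 deviated by -1.05 on the log2 scale from its mean over libraries. The median deviation of the listed genes, each from its own mean, was -1.05 for astrocytes and -1.15 for oligodendrocytes. In library 7 Slc1a2 deviated by 0.18 and the astrocyte list by a median of -0.245. The part of these cells in the values of Slc1a2 and Slc1a1 was not tested.

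Slc1a3 (ENSMUSG00000005360.14, chromosome 15, 8634124 to 8710764, minus strand) had 2934, 2369.6, 2618 and 2114 normalized counts in wild type and 2323, 2711.5, 2747 and 2756 in libraries 5 to 8. The highest and the lowest of the 8 were both wild type. The means were 2509 ± 350.4 and 2634 ± 208 (SD, n = 4 each). Its log2 fold change was 0.08 (SE 0.11; limma-trend adjusted p = 0.764), and the 95% interval of the ratio was 0.891 to 1.249. Without libraries 1 and 5 it was 0.22 (limma-trend adjusted p = 0.379), and without library 4 it was 0.00 to 2 decimals, at -0.0015. Of the 6 satellite glia markers, 1, Fabp7, had an unadjusted limma-trend p under 0.05 (log2 fold change -1.20), and the list's median was -0.13. Among all genes tested, 14.1% had such a p in either direction and 7.34% in that of Fabp7. Of 9 tested markers of cochlear epithelium and lateral wall, 1 had a log2 fold change below 0, against 47.7% of all genes tested, and 8 were above 0. The list's median was 0.28 against 0.02 for all genes tested. Tecta and Otog, which encode proteins of the tectorial membrane and related gels, had an unadjusted limma-trend p under 0.05, with fitted ratios of 7.53 and 2.11. Such a p in their direction was found for 6.72% of all genes tested. Of the 9 markers, 0 passed the adjusted p. The summed level of that list was 123050 to 155547 normalized counts in wild type and 142507 to 173675 in libraries 5 to 8. Most of it was Coch alone, at 100953 to 133105 in wild type and 109735 to 141874 in libraries 5 to 8. The part of these cells in the values of Slc1a3 was not tested.

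**Figure D4:**
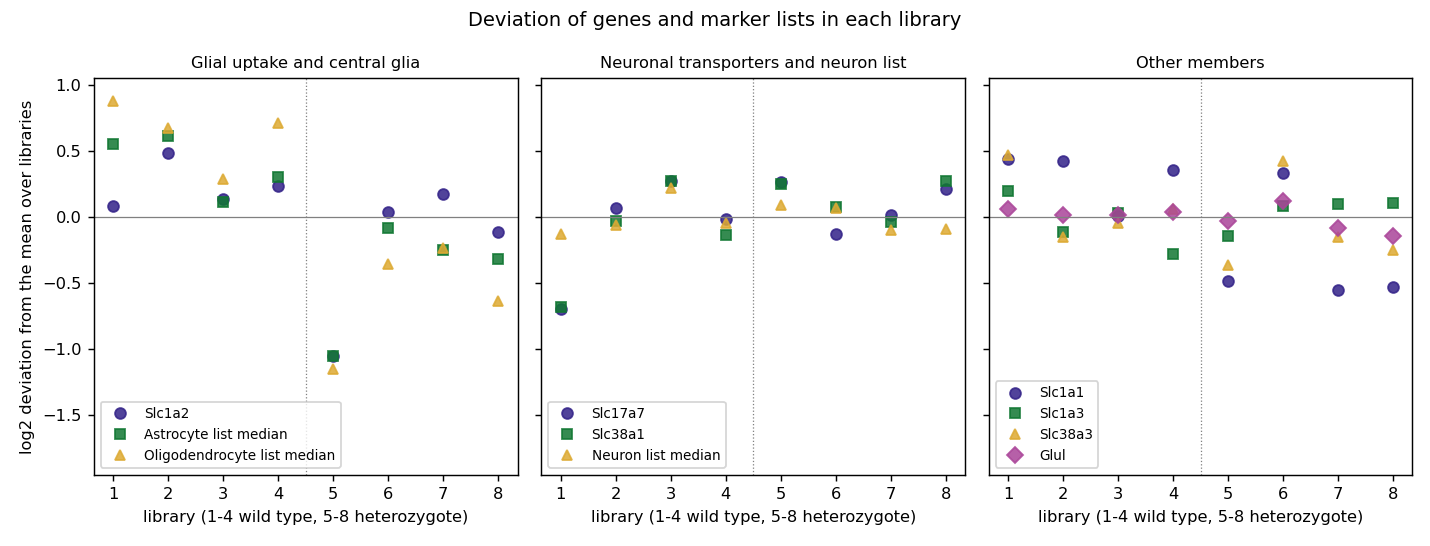
Deviation of each gene from its own mean over the 8 libraries on the log2 scale, by library (1 to 4 wild type, 5 to 8 labelled heterozygote). For a marker list the point is the median of the deviations of its tested genes. Slc1a2 and both central glia lists lie near -1.1 in library 5. Slc17a7 and Slc38a1 lie near -0.7 in library 1, where the neuron list median is at -0.13.

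Glul and Glud1 encode enzymes that use glutamate. Glul (ENSMUSG00000026473.15, chromosome 1, 153899944 to 153909723, plus strand) had 27357, 26517.5, 26470.4 and 26923 normalized counts in wild type, a coefficient of variation of 1.54%. Libraries 5 to 8 had 25752, 28505, 24756 and 23729, a coefficient of variation of 7.99%. The heterozygote-labelled libraries thus lay on both sides of the wild-type range. The means were 26817 ± 413 and 25685.5 ± 2053 (SD, n = 4 each). The log2 fold change was -0.07 (SE 0.10; limma-trend adjusted p = 0.79), and the 95% interval of the ratio was 0.816 to 1.12. The spread of Glul within groups was among the smallest, with 3.17% of tested genes at or below it.

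Glud1 (ENSMUSG00000021794.16, chromosome 14, 34310727 to 34345265, plus strand) had 5255, 4973, 4675 and 4201 normalized counts in wild type and 4400.3, 4389.6, 4212 and 3842 in libraries 5 to 8. Libraries 1 to 3 lay above every library labelled heterozygote, and library 4 lay among them. The means were 4776 ± 450.5 and 4211 ± 261 (SD, n = 4 each). Its log2 fold change was -0.18 (SE 0.09), with a limma-trend adjusted p of 0.399. The 95% interval of the ratio was 0.766 to 1.02, and the log2 fold change was -0.24 to -0.13 in the alternatives.

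Slc38a1 and Slc38a3 encode sodium-coupled transporters of glutamine. The first is known for uptake into neurons, and the other for release from astrocytes. Slc38a1 (ENSMUSG00000023169.15, chromosome 15, 96571418 to 96642913, minus strand) had 3261, 5120.1, 6325 and 4764 normalized counts in wild type and 6205, 5507, 5097 and 6332 in libraries 5 to 8. As with Slc17a7, library 1 was the lowest of the 8. The means were 4867.5 ± 1262 and 5785 ± 585 (SD, n = 4 each), and the log2 fold change was 0.28 (SE 0.17), with a limma-trend adjusted p of 0.449. The 95% interval of the ratio was 0.943 to 1.57. It was 0.10 without library 1, 0.07 without libraries 1 and 5, and 0.42 without library 3. Its longest transcript has 7266 bases, and the correction for transcript length gave 0.10.

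Slc38a3 (ENSMUSG00000010064.15, chromosome 9, 107650634 to 107669530, minus strand) had 1145, 740.4, 800.2 and 859 normalized counts in wild type and 642, 1104, 743 and 692 in libraries 5 to 8. Libraries 1 and 6, of different genotypes, were the highest. The means were 886 ± 179 and 795 ± 210.0 (SD, n = 4 each), with a log2 fold change of -0.17 (SE 0.18) and a limma-trend adjusted p of 0.677. The 95% interval of the ratio was 0.676 to 1.17. Its log2 fold change was -0.04 without library 1, -0.34 without library 6 and 0.05 without libraries 1 and 5.

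Ratios within a library do not depend on its size factor, and 3 pairs, each of 1 transporter family, are given here. The log2 ratio of Slc17a7 to Slc17a6 was 2.18 ± 0.47 in libraries 1 to 4 and 2.26 ± 0.41 in libraries 5 to 8 (SD, n = 4 each). For Slc1a2 to Slc1a3 it was -0.56 ± 0.33 and -1.11 ± 0.44. For Slc38a3 to Slc38a1 it was -2.44 ± 0.65 and -2.89 ± 0.44. The two-sided exact permutation p was 0.8, 0.114 and 0.314 in that order, and the adjusted p, over the 4 pairs tested, was 0.8, 0.4 and 0.419. The smallest exact p that 4 libraries against 4 allow is 0.0286. None of these 3 ratios passed 0.05. Library 5 had the lowest ratio of Slc1a2 to Slc1a3 at -1.75, and library 1 had the highest of Slc38a3 to Slc38a1 at -1.51. The difference of the Slc17a7 to Slc17a6 ratio, 0.08, was -0.22 without libraries 1 and 5, -0.14 without library 1 and -0.0027 without library 5, so its direction rests on these libraries. Without libraries 1 and 5 the difference of the Slc1a2 to Slc1a3 ratio was -0.47 and that of the Slc38a3 to Slc38a1 ratio was -0.02.

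**Figure D5:**
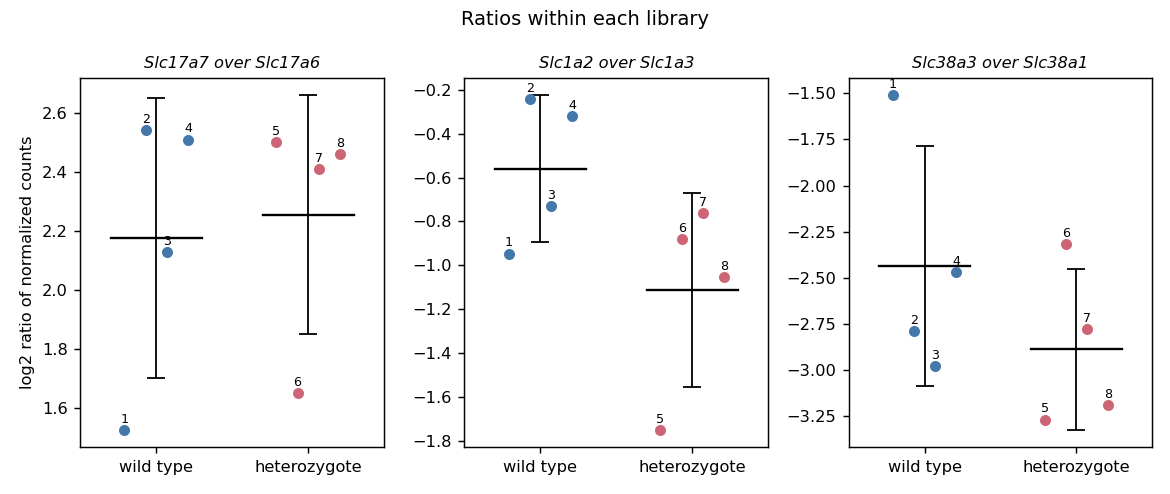
Log2 ratios of normalized counts within each library for 3 pairs of genes, with points numbered by library (1 to 4 wild type, 5 to 8 labelled heterozygote) and the mean and SD of each group (n = 4) in black. The axes do not start at 0. The genotypes overlap in all 3 pairs.

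The other genes of glutamate and glutamine handling were read from a list of 24, of which 23 were in the table and tested. Of these, 0 passed the adjusted p and 2 had an unadjusted limma-trend p under 0.05, both higher in the libraries labelled heterozygote. Among all genes tested, 14.1% had such a p in either direction and 6.72% in that direction. The list's median log2 fold change was -0.05, against 0.02 for all genes tested. Slc38a2, a further glutamine transporter of the same family, had 10143, 10055, 9962 and 8384 normalized counts in wild type and 11663, 12839, 10991 and 10843 in libraries 5 to 8. All 4 libraries labelled heterozygote lay above all 4 of wild type, as they did in 3.4% of all genes tested. The log2 fold change was 0.27 (SE 0.10), with a limma-trend adjusted p of 0.296. The correction for transcript length gave 0.12, with a limma-trend adjusted p of 0.721. In the authors' deposited table its ratio was 1.2 and its FDR 0.159. Slc38a5, also a glutamine transporter, had 75.3, 41.8, 33.9 and 21.7 normalized counts in wild type and 81.5, 116.8, 77.3 and 58.1 in libraries 5 to 8. Library 1 lay above library 8, so the genotypes overlapped. The log2 fold change was 1.03 (SE 0.39), with a limma-trend adjusted p of 0.297. Got1, the cytosolic aspartate aminotransferase, was the highest of this list at 3085 normalized counts per kilobase. Slc17a8, the vesicular transporter of inner hair cells, had 109.6 per kilobase, and its log2 fold change was -0.20 (limma-trend adjusted p = 0.725). Of 8 tested hair cell markers, 2 had a log2 fold change below 0, against 47.7% of all genes tested, and 6 were above 0. The median of the hair cell list was 0.30. Otof and Gfi1 were higher and Ocm lower at an unadjusted limma-trend p under 0.05, against 14.1% of all genes tested in either direction. Of the 8 markers, 0 passed the adjusted p. The summed hair cell level was 3696 to 6620 normalized counts in wild type and 2915.5 to 6024 in libraries 5 to 8. The part of these cells in the value of Slc17a8 was not tested.

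Likeness between genes was measured as the root mean square difference of their log2 values over the 8 libraries, each centred on its own mean. Of 13355 other tested genes with a mean of at least 50 normalized counts, those closest to Slc17a7 were Hapln1 (0.044), Kidins220 (0.050) and Ift80 (0.056). For Slc38a1 they were Prepl (0.032), Dchs1 (0.039) and Dmxl2 (0.044). Slc38a1 was place 36 among the genes closest to Slc17a7, at 0.095, and Slc17a7 was place 114 for Slc38a1. Of the pairs among the 9 genes this was the closest, and both genes share the low library 1. Closest to Slc1a2 were Gpr37 (0.125), Shisa4 (0.145) and Baalc (0.154), and to Slc1a1 Gadd45a (0.156), Snhg3 (0.164) and Adamtsl4 (0.165). For Glul they were Scoc, Apeh and Atp6ap1 (0.036 to 0.038), and for Glud1 4933434E20Rik, Rdh14 and Ndfip1 (0.043 to 0.052). Mto1, Fgf1 and Alg2 were closest to Slc17a6 (0.083 to 0.096). Cdc27, Ceacam1 and Selenon were closest to Slc1a3 (0.045 to 0.058), and Uap1l1, Eef1akmt2 and Daglb to Slc38a3 (0.084 to 0.116). The measure favours genes that vary little, and it was not tested.

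The extremes were spread over the libraries. Library 1 was the highest of the 8 for 4 genes (Slc1a1, Slc1a3, Glud1 and Slc38a3) and the lowest for 2 (Slc17a7 and Slc38a1). Library 5 was the lowest for 2 (Slc1a2 and Slc38a3) and the highest for 0. Library 6 was the highest for 2 (Slc17a6 and Glul). The within-group SD on the log2 scale was 0.41 for Slc1a2 and 0.08 for Glul, the largest and the smallest of the 9.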

How the data were processed

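Per the labels' protocols, RNA had an integrity number of at least 7, and strand-specific poly(A) libraries used 50 ng of it. STAR, Partek, DESeq2 and mm10 are named per the submitters' processing notes; the counting method is not given in the sources used here. The authors deposited a signal per gene and library, judged from the values to be read counts divided by size factors (normalized counts). The authors' deposited columns also give a p-value with an FDR, the ratio of the genotypes with its log2, and a signed score that was not used here. 88.5% to 91.7% of values under 1000 were whole multiples (within 0.05) of a step per column, under the 95% needed to recover reads, so reads estimated from the steps entered 1 alternative only (limma-voom), which falls short of that mark. 3 reads correspond to 2.37 to 3.89 normalized counts.

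The test covered the 14870 genes that reached 10 normalized counts in 4 or more libraries, and used limma-trend on log2(value + 1), without covariates, with Benjamini-Hochberg adjustment over all of them. Fold changes are on that scale. Ratios used two-sided exact permutation tests, adjusted over 4 pairs, of which 1 is not reported here. Lengths and positions came from GENCODE M21 (97.6% of genes matched by symbol), promoters from RefSeq. The alternatives were pseudocounts of 0.1 and 10, other filters (none, a mean of 50), upper-quartile and quantile scaling, limma-voom on estimated reads, a loess correction for transcript length (span 0.5), low Xist as a covariate or its 2 libraries left out, and each library left out in turn. The fit was tested on simulated data with the same spread setting for every gene. It called 92 of 100 genes changed 2-fold, 100 of 100 changed 4-fold and 9 unchanged genes. Smaller changes and each gene's own spread were not simulated, so it does not give the power for the 9 genes. R 4.3.3, limma 3.58.1, Python 3.11.15, numpy 2.4.6, pandas 2.3.3, scipy 1.17.1 and matplotlib 3.10.9 were used.

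The genes, lists and tests were chosen with earlier results of these data known. Named were all 9 genes, other pathway genes with an unadjusted p under 0.05, the 3 genes closest to each of the 9, and marker lists set beside a result. Whether a list moved with the gene beside it was not tested. Got1, Slc17a8 and 4430402I18Rik were named after their values were seen. Each library stands for 1 mouse.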

Additional observations from a re-analysis of the deposited data

Results flagged for a closer look

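In 30 groups of 4 libraries (the 9 genes, Slc38a2, Slc38a5 and the 4 ratios tested, in each genotype), 4 had 1 library far from the other 3, where chance gives about 1.5. The measure is the gap to the nearest library divided by the range of the group, set against Dixon's 95% critical value.

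For Slc1a1 the ratio was 0.945 in libraries 5 to 8, labelled heterozygote, because library 6 (267.5 normalized counts) stood above the other 3 (144 to 151). Slc1a3 had 0.898 there, because library 5 (2323) stood below the other 3 (2711.5 to 2756). The log2 ratio of Slc17a7 to Slc17a6 had 0.894 in the same group, with library 6 at 1.65 and the others at 2.41 or more. In wild type, Slc38a2 had 0.897, with library 4 at 8384 normalized counts and the others at 9962 to 10143.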

How the results depend on the processing

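The count of the 9 genes past an adjusted p of 0.05 was 0 under each of the 18 alternatives, and so was that of the 23 other pathway genes. The count over all genes was 12, with 7 after quantile normalization and 30 after the length correction, which tested 14517 genes. It was 0 to 221 when single libraries were left out: 221 without library 3, 0 without library 2, 4 or 8, 6 without library 7 and 7 without library 5. Fold changes of Slc1a1, Slc1a2, Glul, Glud1, Slc38a1, Slc38a2 and Slc38a5 kept their direction in all 18. Of these, low Xist as a covariate cannot move a fold change, because the genotypes are of equal size with 1 such library each. Those of Slc17a7 (-0.072) and Slc38a3 (0.052) were reversed without the 2 libraries low in Xist. With single libraries left out, Slc17a7 ranged from -0.014 to 0.31, Slc17a6 from -0.020 to 0.25 and Slc1a3 from -0.0015 to 0.16. The ratio of Slc17a7 to Slc17a6, a difference of 0.08, was -0.22 without the 2 libraries low in Xist and -0.14 to 0.28 with single libraries left out. Why these values moved was not tested. The ratios of Slc1a2 to Slc1a3 and of Slc38a3 to Slc38a1 kept their direction in all 11 of their alternatives. No paired analysis was possible because the genotypes share no replicate numbers.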
